A study of Mus musculus with 2 samples.

Results

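The genes described here mark the path from bone precursor to mineralising osteoblast, and were followed in the fetal mouse palate at E18.5 (embryonic day). The set holds Runx2, Sp7, Alpl, Sparc, Ifitm5, Panx3, Pth1r, Cthrc1 and Smpd3, and its members were found as the probe sets that the platform annotation gives to exactly 1 gene. This found 14 probe sets of 8 of the 9 genes, among 18193 genes with a probe set in all. Expression of Runx2 was not analysed here, and it enters below by its upstream window alone. The study compared palate labelled as null for both Myf5 and MyoD (gene symbol Myod1) on the BALB/c background with palate of BALB/c wild type, in a series on the role of muscle in forming the palate. Each genotype had 1 Affymetrix array, which was hybridised with biotinylated cRNA from 6 µg of total RNA. Whether fetuses were pooled for an array, and where the null alleles cut each gene, is not stated in the labels.

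Bone of the palate forms directly within mesenchyme, without a cartilage template. RUNX2 commits mesenchymal cells to the bone lineage, SP7 (osterix) acts downstream of it, and the committed cells then deposit collagen and mineralise it. In humans, mutations of SP7, SPARC and IFITM5 cause forms of brittle bone disease, and mutations of ALPL cause a disorder of bone mineralisation. Several of these genes are not restricted to osteoblasts: Sparc is made by many matrix-producing cells, Sp7 and Alpl also by tooth-forming cells, and Pth1r and Panx3 also by maturing cartilage cells.

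For 5 of the 9 genes an upstream window was available in RefSeq (GRCm38.p6), and 3 windows are shown as the 250 bases before the annotated start of Alpl, Ifitm5 and Sparc, which stand for the mineralising enzyme, the osteoblast membrane protein and the general matrix protein among the genes described. Capitals mark GGGCGG or its reverse complement, the GC box that zinc fingers of the Sp family bind. The windows are chr4:137796385-137796634, chr7:140950244-140950493 and chr11:55420081-55420330, all on the minus strand, written 5′ to 3′; that of Alpl belongs to the upstream of its annotated starts.
Alpl: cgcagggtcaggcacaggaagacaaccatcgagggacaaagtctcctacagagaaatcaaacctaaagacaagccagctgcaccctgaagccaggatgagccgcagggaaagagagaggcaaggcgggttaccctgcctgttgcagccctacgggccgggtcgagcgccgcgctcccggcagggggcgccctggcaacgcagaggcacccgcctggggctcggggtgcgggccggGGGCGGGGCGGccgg
Ifitm5: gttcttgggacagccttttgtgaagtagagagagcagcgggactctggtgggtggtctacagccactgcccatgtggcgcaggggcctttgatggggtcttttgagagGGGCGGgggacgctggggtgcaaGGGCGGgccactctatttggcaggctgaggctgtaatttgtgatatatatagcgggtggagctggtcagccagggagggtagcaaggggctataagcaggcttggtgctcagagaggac
Sparc: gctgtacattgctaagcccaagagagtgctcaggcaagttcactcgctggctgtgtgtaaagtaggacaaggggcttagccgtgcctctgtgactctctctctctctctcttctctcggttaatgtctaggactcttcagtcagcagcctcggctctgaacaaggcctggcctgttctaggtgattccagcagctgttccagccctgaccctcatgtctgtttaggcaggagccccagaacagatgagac
The Alpl window held 2 overlapping GC boxes starting 15 and 10 bases before the start, the Ifitm5 window 2 that begin 142 and 119 bases before it, and the Sparc window none. Alpl and Pth1r had more than 1 annotated start, which gave 8 windows for the 5 genes. Of these 8 windows 4, belonging to Alpl, Ifitm5 and Pth1r, held a GC box, against 32.7% of all 32851 windows of the same length. The window of the other Alpl start held none. The RUNX core ACCACA, searched on both strands, was found in 1 of the 8 (that of Runx2), against 14.0% of all windows. The homeodomain core TAATTA was in none of the 8, against 4.84% of all windows. These counts describe letters in a short window and say nothing of binding.

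Signals below are the deposited MAS5 intensities after a common scaling, and a log2 ratio is the array labelled double null minus wild type. A gene with several probe sets is represented by its brightest, and counts as measured where the brighter array reached the 60th percentile of all signals (660). Signals under the 40th percentile (287) were set to that floor. Since each genotype has a single array, no test between genotypes and no p-value can be given, and variation among fetuses, dissections or hybridisations cannot be told apart from genotype. There being no replicate error, the spread of log2 ratios between probe sets of the same gene on these arrays is given. It was a pooled SD of 0.51 over 10158 measured probe sets of 4017 genes. Where both arrays reached the 75th percentile that SD was 0.40. Either SD leaves out variation between fetuses and hybridisations, which probe sets of a gene share, so neither measures replicate error.

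Neither targeted gene differed much between the arrays. Myod1 had a signal of 1663 on the array labelled double null and 1938 in wild type, and Myf5, below the measured level, had 531 and 517 in the same order. The labels and annotation do not place these probe sets relative to the null alleles, so they do not check the label, and the array is named by its label throughout.

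By their brightest probe sets, the osteoblast genes were present on both arrays at signals less than 1.5-fold apart. All 8 genes were measured, and none was 2-fold or more apart, where 7.73% of the 11224 measured genes were. With only 8 genes, a count of 0 is near that share and does not set them apart. At a rule of 1.5-fold the count was also 0 of 8, where 25.0% of measured genes passed. The log2 ratios of the 8 ran from -0.46 for Sp7 to 0.55 for Cthrc1, with 5 genes below 0 and 3 above. Of all measured genes 43.7% lay below 0. The median of the 8 was -0.09, against 0.07 over all measured genes. The ratios of 7 of the 8 genes lay within the SD between probe sets, and Cthrc1 lay just outside it. Against the smaller SD of 0.40, which applies to the 6 genes bright on both arrays, Sp7 lay outside as well. Of all measured genes 70.3% had a ratio no larger in size than the SD of 0.51. The 8 ratios had an SD among themselves of 0.33, against 0.59 over all measured genes. These comparisons with all measured genes are not matched for signal, and 6 of the 8 genes were bright on both arrays. Palate is bulk tissue, in which fewer osteoblasts and less RNA per osteoblast cannot be told apart.

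**Figure D1:**
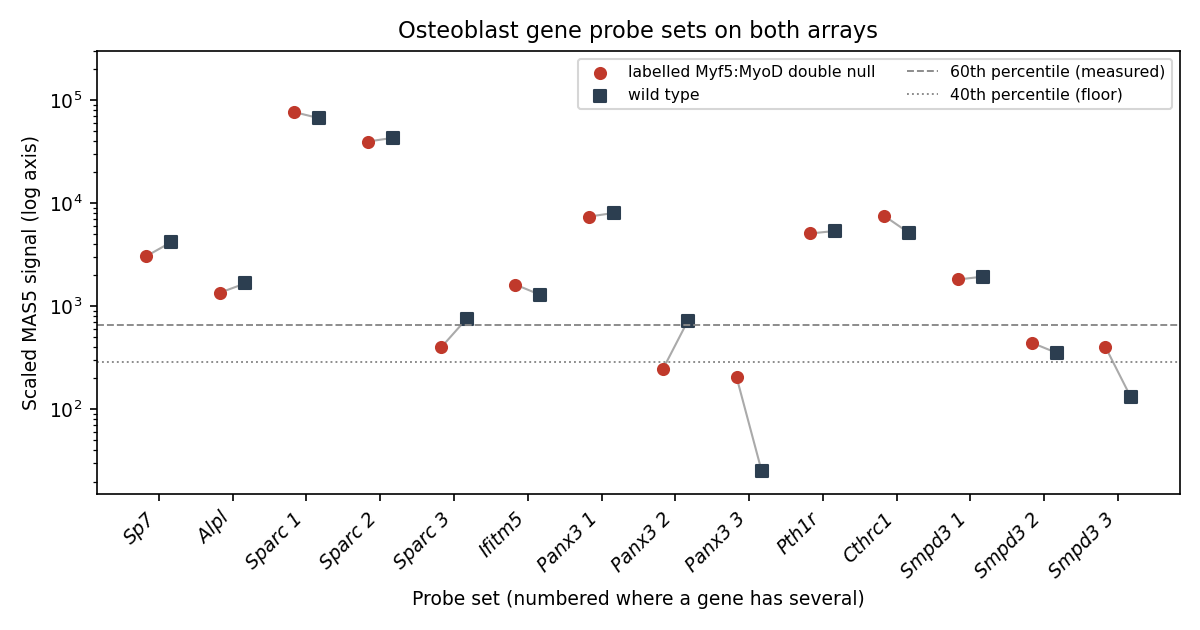
Scaled MAS5 signal (log axis) of each of the 14 probe sets of the osteoblast genes on the array labelled double null (circles) and in wild type (squares), 1 array each, with dashed and dotted lines at the measured level of 660 and the floor of 287. The probe set that represents each gene lies above the measured level on both arrays, and the wide gaps belong to dim probe sets of Sparc, Panx3 and Smpd3.

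Sp7, the zinc finger transcription factor that osteoblast formation requires, had a signal of 3064 on the array labelled double null and 4201 in wild type. It was the member lowest on the array labelled double null, 1.37-fold lower (log2 ratio -0.46), and 34.5% of measured genes had a ratio of larger size. Only 1 probe set reads it. Its neighbour on chromosome 15, Sp1, a widely expressed factor of the same family, had 7101 and 8144 in the same order (log2 ratio -0.20).

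Alpl, the tissue-nonspecific alkaline phosphatase that removes the mineral inhibitor pyrophosphate, had 1358 on the array labelled double null and 1665 in wild type. That is 1.23-fold lower, a log2 ratio of -0.29. Its paralogues of other tissues, Alpi, Alppl2 and Akp3, were below the measured level on both arrays, at 325, 22.7 and 189 on the array labelled double null and 436, 40 and 53.3 in wild type.

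Smpd3, neutral sphingomyelinase 2, which releases ceramide and is needed for normal mineralisation in mice, had 1819 on the array labelled double null and 1937 in wild type (log2 ratio -0.09). Its other probe sets were both below the measured level, with 444 and 402 on the array labelled double null and 353 and 133 in wild type. They point the other way from the bright probe set, at signals where no direction can be read.

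Sparc, the matrix glycoprotein osteonectin that binds collagen and calcium, was read by 3 measured probe sets that differed in direction. The brightest gave 76443 on the array labelled double null and 66575 in wild type (log2 ratio 0.20). The next gave 39514 and 42929 in the same order (-0.12), and a dim probe set 403 and 756 (-0.91). Both bright probe sets put the arrays within 1.15-fold of each other. The mean over all 3 was -0.28, so the sign of the Sparc ratio depends on the probe sets used.

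Ifitm5, also called Bril, a small membrane protein largely restricted to osteoblasts, had 1624 on the array labelled double null and 1289 in wild type. That is 1.26-fold higher, a log2 ratio of 0.33, from 1 probe set. Its relatives Ifitm1, Ifitm2 and Ifitm3, which act against viruses and are widely expressed, had log2 ratios of 0.09, -0.18 and 0.24. Of these Ifitm2 lies next to Ifitm5 on chromosome 7.

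Panx3, a pannexin channel protein of osteoblasts and maturing cartilage, was read by 3 probe sets. The brightest, of a type that can match more than 1 transcript (suffix _s_at), gave 7402 on the array labelled double null and 8040 in wild type, a log2 ratio of -0.12. A dimmer probe set gave 245 and 724 in the same order, which is at least 2.52-fold lower because the array labelled double null lay under the floor. The remaining probe set was under the floor on both arrays, at 205 and 25.3. Panx3 therefore counted as at least 2-fold lower only where _s_at and _x_at probe sets were left out. This dim probe set was the only one of the 11 measured probe sets of the osteoblast genes past 2-fold, against 8.19% of all 17375 measured probe sets. Panx1, the broadly expressed pannexin, had 2329 and 1520 (0.62).

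Pth1r, the receptor through which parathyroid hormone and PTHrP act on osteoblasts, had 5078 on the array labelled double null and 5378 in wild type. The log2 ratio was -0.08, the smallest of the 8 in size.

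Cthrc1, a secreted protein of matrix-forming cells that promotes Wnt signalling through the planar polarity branch, had 7529 on the array labelled double null and 5128 in wild type. It was the member highest on the array labelled double null, 1.47-fold higher (log2 ratio 0.55), and 26.8% of measured genes had a ratio of larger size. Both genes beside it on chromosome 15 also had ratios above 0, Fzd6 at 0.30 and Slc25a32 at 0.44. Fzd6 encodes a Wnt receptor of that branch. Over all 8 genes, 15 of 16 neighbours were measured and 1 was past 2-fold, Fat2 next to Sparc, with 158 on the array labelled double null and 1961 in wild type. Of the 15, 9 had the sign of the gene they lie beside and 6 the opposite sign, among them both neighbours of Alpl and both of Ifitm5. The neighbours were named for their position, after their values were seen.

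**Figure D2:**
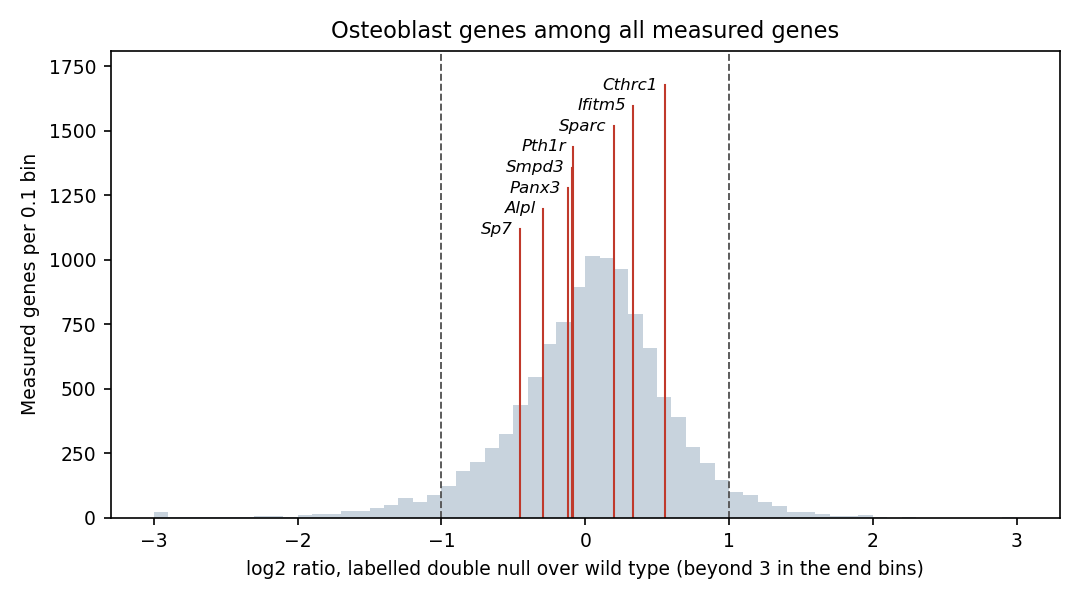
Distribution of log2 ratios (array labelled double null over wild type) over 11224 measured genes in bins of 0.1, with red lines at the 8 osteoblast genes and dashed lines at 2-fold. The osteoblast genes lie between -0.46 and 0.55, all inside the dashed lines, where 92.3% of measured genes lie.

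The results depended on how the arrays were made comparable. Under 9 other settings and 2 more added after the data were seen, Ifitm5 and Cthrc1 kept a ratio above 0 throughout, and each of the other 6 genes changed sign in 1 alternative. For Sparc that was the mean over its probe sets. For the other 5 it was scaling on the median signal of 17 reference genes, under which the median of all measured genes was 0.73. Relative to the median of all measured genes the osteoblast median was -0.16 in the main setting and between -0.23 and -0.14 in the alternatives.

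**Figure D3:**
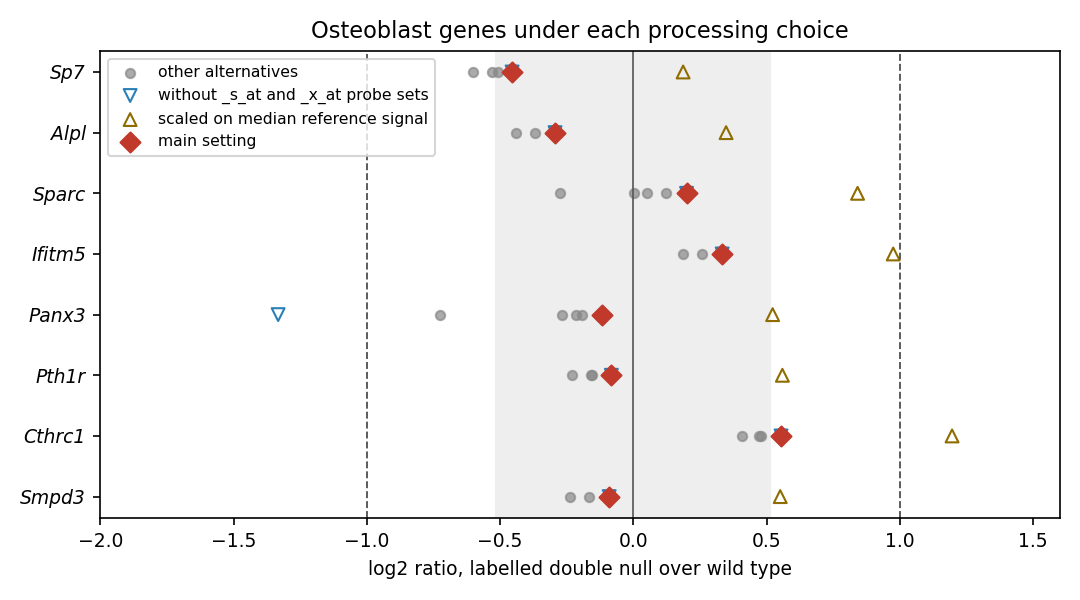
Log2 ratio (array labelled double null over wild type) of each osteoblast gene in the main setting (diamonds) and in 11 alternatives, with the SD between probe sets shaded and dashed lines at 2-fold. Scaling on the median reference signal moves all 8 genes to the right, and leaving out _s_at and _x_at probe sets moves Panx3 to -1.33.

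Regulators that act on or with RUNX2 and SP7 had a median log2 ratio of 0.19, against 0.07 over all measured genes. Of 12 measured genes 8 were above 0 and 4 below, where 43.7% of all measured genes lay below. Of the 12, 1 was at least 2-fold lower, where 4.22% of all measured genes were. None was at least 2-fold higher, where 3.51% were. Cbfb, the partner subunit that stabilises RUNX proteins on DNA, had 25953 on the array labelled double null and 14544 in wild type (0.84). Dlx3, a homeobox gene of bone, tooth and epidermis, had 1209 and 621 (0.96). Msx2, a homeobox gene of skull and tooth precursors, had 1443 and 5429, which is 3.76-fold lower, whereas its other measured probe set gave -0.31.

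Genes of the matrix that osteoblasts deposit lay within 2-fold in all 7 measured cases, as did 92.3% of all measured genes. The median of the 7 was 0.06. Col1a1, the main chain of bone collagen, had 61076 on the array labelled double null and 36646 in wild type (0.74), and its other probe set gave 1.20. Postn, periostin, had -0.27 and Bgn, the proteoglycan biglycan, -0.34. The osteocyte list had a median of -0.39. At least 2-fold lower were 3 of its 7 measured genes, where 4.22% of all measured genes were. None was at least 2-fold higher, where 3.51% were. Mepe, a mineral-binding matrix protein of osteocytes, had 90.8 and 1615, at least 5.62-fold lower. Sost, the Wnt inhibitor sclerostin made by osteocytes, had 356 and 872, 2.45-fold lower. Dmp1, another osteocyte matrix protein, had 11604 and 23284, 2.01-fold lower, and Dkk1, a secreted Wnt inhibitor, had 0.20, with -0.73 in its other probe set. The count of 3 was 1 with scaling on the median reference signal. It was 2 with the floor at the 60th percentile, where Sost had -0.40, and 2 without _s_at and _x_at probe sets, where Dmp1 had -0.69. It was also 2 with the measured level at the 75th percentile, which Sost did not reach.

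Genes that fold, cross-link and cleave collagen had a median of -0.32. Below 0 were 12 of 16 measured genes, where 43.7% of all measured genes were. At least 2-fold lower were 3 of the 16, where 4.22% of all measured genes were. None was at least 2-fold higher, where 3.51% were. Creb3l1, a transcription factor of the endoplasmic reticulum that promotes collagen expression in osteoblasts, had 3027 on the array labelled double null and 6388 in wild type, 2.11-fold lower. Bmp1, the protease that trims procollagen, had 1217 and 2438, just past 2-fold lower. Tmem38b, an ion channel of the endoplasmic reticulum, had 1607 and 4129, 2.57-fold lower, but its 2 other measured probe sets gave 0.42 and 0.84. Sec24d, a coat protein of vesicles that carry procollagen, was the furthest the other way at 0.56. With scaling on the median reference signal none of the 16 was 2-fold lower.

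Of 49 measured genes in 5 lists of pathways and paralogues of the osteoblast genes 2 were past 2-fold, a share near that of all measured genes, of which 92.3% lay within it. Of 4 measured genes of phosphate and pyrophosphate transport, beside Alpl, none was past 2-fold, and the median was 0.04. Ank, which exports pyrophosphate, had a log2 ratio of 0.21, and the phosphate carriers Slc20a1 and Slc20a2 had 0.14 and -0.07, with 1.27 in the other probe set of Slc20a2. Beside Smpd3, none of 10 measured genes of sphingomyelin and ceramide metabolism was past 2-fold (median 0.17), with the sphingomyelinases Smpd4 at 0.84 and Smpd2 at -0.27, the ceramidase Asah2 at 0.45 and the sphingomyelin synthase Sgms1 at 0.40.

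Downstream of Pth1r, 10 genes were measured with a median of 0.01. Adcy6, an adenylyl cyclase, had 2459 on the array labelled double null and 5183 in wild type, 2.11-fold lower and the only member past 2-fold. Gna11, a G protein subunit, had -0.63 with -0.04 in its other probe set, and Prkaca, the catalytic subunit of protein kinase A, 0.54 with -0.13 in its other probe set. Among 13 measured Wnt polarity genes, the setting in which Cthrc1 acts, the median was -0.09 and none was past 2-fold. Wnt5a, a ligand of this branch, had -0.59 with 0.07 in its other probe set, Vangl1, a membrane protein of it, -0.55, and the Wnt receptor Ryk 0.62, with -0.32 and -1.04 in its other probe sets. Among paralogues of the osteoblast genes 12 of 18 were measured, and 1 was past 2-fold. That was Sp8, a relative of Sp7 active in limb and nervous system, with 2847 on the array labelled double null and 1265 in wild type (2.25-fold higher). Sp6, a relative active in tooth and skin epithelium, had -0.72, and Smoc1, a relative of Sparc, -0.81.

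**Figure D4:**
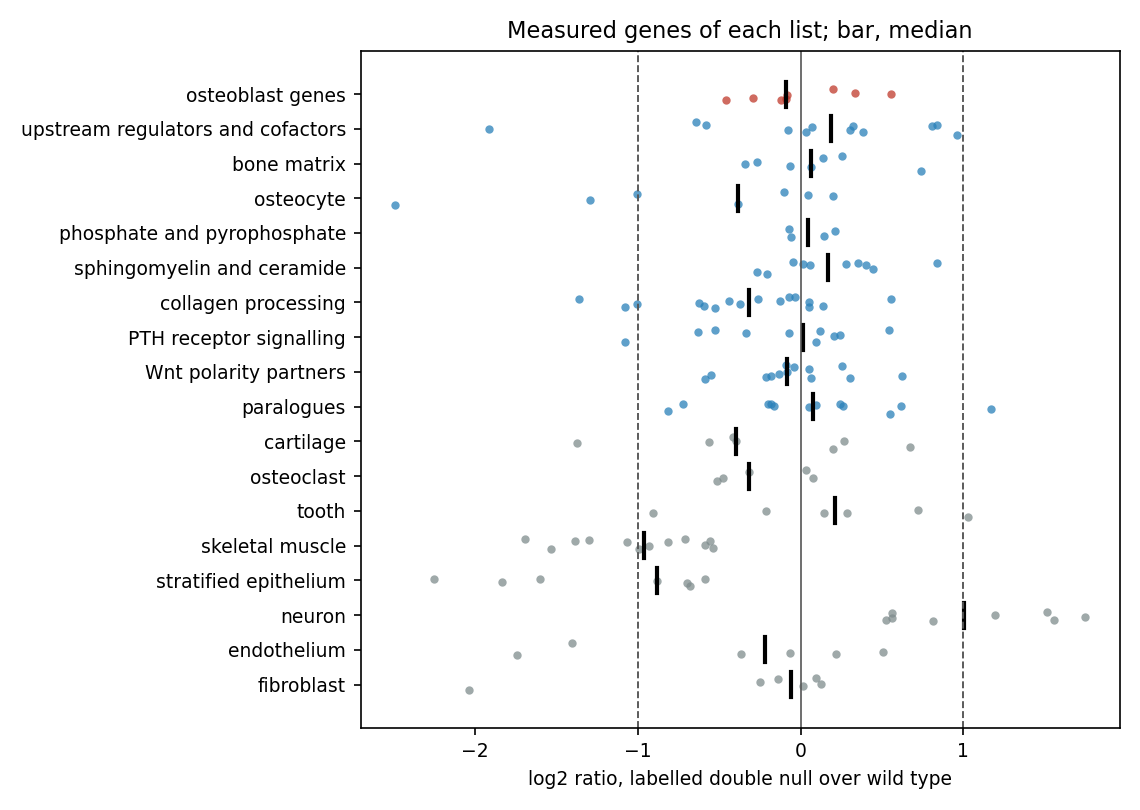
Log2 ratios (array labelled double null over wild type) of the measured genes of each list, 1 point per gene, with black bars at list medians and dashed lines at 2-fold. The osteoblast genes (red) centre near 0 at -0.09, while marker lists of skeletal muscle and stratified epithelium lie wholly below 0 and the neuron list wholly above it.

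The tissue on the arrays differed in markers of other cell types, summed here over all listed genes with a probe set. Skeletal muscle markers summed to 109671 on the array labelled double null and 202025 in wild type, with 12 of 12 measured genes below 0 (defining markers Acta1 -0.71 and Myh3 -0.58). Muscle transcripts were thus read on both arrays, and whether that matches the label was not tested. Acta1 had 23430 on the array labelled double null and 38283 in wild type, and Myh3 17251 and 25860 in the same order. Stratified epithelium summed to 50868 and 99828 in the same order, with 7 of 7 below 0 (Krt5 -0.59, Krt14 -0.70), and neuron markers to 116547 and 52165, with 8 of 8 above 0 (Nefl 1.51, Nefm 0.81). The sums of the other marker lists differed less. Tooth markers summed to 158197 and 141045, with 2 of 6 measured genes below 0 and 4 above (Dspp -0.91, Amelx 0.15). Dspp, with 6347 and 11895 in the same order, made up little of that sum, and Amelx had 62843 and 56761. Cartilage markers summed to 16293 and 18122, with 4 of 7 below 0 and 3 above (Col2a1 0.67, Acan -0.56). Past 2-fold were Amtn of the tooth list (1.03) and Col11a2 of the cartilage list (-1.37). Osteoclast markers summed to 101578 and 118669, with 3 of 5 below 0 and 2 above (Acp5 -0.51, Ctsk -0.32). Fibroblast markers summed to 189696 and 188884, with 3 of 6 measured genes below 0 and 3 above (Col3a1 0.13, Pdgfra 0.09). Of the fibroblast markers 1 was past 2-fold, Dpt, 4.10-fold lower (-2.03). Endothelial markers summed to 8933 and 10167, with 4 of 6 measured genes below 0 and 2 above (Cdh5 -0.37, Pecam1 at least 2.65-fold lower). Tie1 of that list was also past 2-fold, 3.35-fold lower (-1.74). Pecam1 was under the floor on the array labelled double null, at 109, and had -0.21 with the floor at the 60th percentile. Dpt, Amtn, Col11a2 and Tie1 were named after their values were seen, and the part of these tissues in the values above was not tested.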

How the data were processed

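Gene expression was measured on 2 Affymetrix arrays of mouse fetal palate, 1 per genotype. The deposited values were linear signal intensities, 1 for each of 45101 probe sets (64 of them controls), which the authors computed in MAS5 (per the submitters' processing notes); its version and a genome build are not given in the sources used here. Leaving out the outer 2% at each end, the mean signal of either array was 1500.01, as scaling to a shared target gives.

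The platform annotation named the probe sets: 34945 had 1 gene, 932 several and 9160 none listed. The arrays were brought to a common level on the median of probe sets in the upper part (50th percentile and up) of both (factors 1.03 for the array labelled double null and 0.974 for wild type). The floor, the measured level and the use of the brightest probe set are as stated above, and log2 was taken after the floor. A fold is a bound where 1 array was under the floor. Genes were counted by size, at least 2-fold.

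The members, lists, settings and rule for named genes were chosen with earlier results of these data known. Named were all members, the targeted genes, in each list the 3 measured genes with the largest log2 ratio in size and the one furthest the other way, and 2 defining markers per marker list. Outside this rule were the neighbours, the paralogues Alpi, Alppl2, Akp3, Ifitm1, Ifitm2, Ifitm3 and Panx1, and the markers Dpt, Amtn, Col11a2 and Tie1. Upstream sequences are from RefSeq. No test was run, since there is 1 array per genotype, and the number of arrays limits the precision. The steps were tested on simulated data. Python 3.11.15, numpy 2.4.6, pandas 2.3.3 and matplotlib 3.10.9 were used.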

Additional observations from a re-analysis of the deposited data

How the results depend on the processing

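The log2 ratios of the 8 osteoblast genes and of 46 other named genes, the medians of the lists and the counts past 2-fold were recomputed under 9 other settings, and 2 more added after the data were seen, both of which scale on 17 reference genes. Some named genes were below the measured level in 1 or 2 of these settings and have no value there. The neighbours, the other genes named outside the rule, marker sums, targeted genes and spreads were computed in the main setting only. Of 88 values of the osteoblast genes 78 moved by less than the SD of 0.51 between probe sets. The other 10 came from 3 of these settings. The other floors and measured levels could not move these values, because the brightest probe sets lay above those floors and passed those levels. The choices of probe set could move only Sparc and Panx3. The count of 78 is therefore no measure of robustness. Scaling on the reference genes' median signal gave log2 ratios of 0.19 for Sp7, 0.35 for Alpl, 0.84 for Sparc, 0.98 for Ifitm5, 0.52 for Panx3, 0.56 for Pth1r, 1.20 for Cthrc1 and 0.55 for Smpd3, with a median of 0.56 and 1 gene, Cthrc1, past 2-fold. It moved all measured genes along with them, to 121 lower and 3121 higher. Panx3 had -0.73 as the mean over its measured probe sets and -1.33 without _s_at and _x_at probe sets, where it was the 1 gene past 2-fold.

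Over all measured genes 474 were at least 2-fold lower and 394 higher. These became 264 and 257 with the floor at the 60th percentile, 243 and 236 with the measured level at the 75th percentile, and 1318 and 1485 by a 1.5-fold rule, where none of the osteoblast genes passed. Scaling on the reference genes' median ratio gave 693 lower and 236 higher. The share of lower genes among those past 2-fold was 54.6%, against 65.1% with the deposited scaling, 3.73% with the median reference signal and 74.6% with the median reference ratio. Why the reference genes shift the arrays this far was not tested. No paired analysis was possible because each genotype has 1 array, and for the same reason no array could be left out. Dim signals limit the least bright probe set of Sparc and the other probe sets of Panx3 and Smpd3.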
